A study of Mus musculus with 3 samples.

Results

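The BCL2 family is a set of related proteins that decide whether the outer membrane of the mitochondrion stays intact. Here it comprised 10 mouse genes, read by every array probe whose gene name in the scanner files equals one of them: Bbc3, Pmaip1, Bcl2l11, Bid, Bax, Bak1, Bcl2, Bcl2l1, Mcl1 and Bcl2a1b. These are 10 of 27572 genes and 18 of 41174 probes on the arrays. By their known roles, 6 of them promote cell death and 4 protect cells.

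RNA came from J774A.1, an established mouse macrophage-like cell line. Cells spent 6 h in one of 3 media: RPMI with 10% fetal bovine serum, EBSS (Earle's balanced salt solution, which lacks amino acids and serum), or EBSS to which 10 µM SB202190, which inhibits the stress kinase p38, had been added. Groups follow the source names, because the design text could also mean that RPMI was present in every group. The 3 conditions were paired on 3 two-colour Agilent arrays as a closed loop, so that each condition was 1 sample read in Cy5 on one array and in Cy3 on another. No genetic change is named for any group. The labels name neither the RNA extract behind each reading nor any solvent control for the inhibitor, and nothing says that readings came from separate cultures.

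In this family, BH3-only proteins act as sensors of stress, and they either bind and block the protective proteins or switch on BAX and BAK directly. BAX and BAK then form pores through which cytochrome c leaves the mitochondrion and caspases become active. BCL2, BCL-XL, MCL1 and A1 hold both kinds of death protein in check, and in macrophages MCL1 and A1 are known as protective members with short-lived products.

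The conditions had no replicate cultures, so no p-value was computed. A log2 ratio between conditions was fitted by least squares over the loop, in which a probe's mean dye effect cancels, and its technical SE was taken from how far the loop failed to close at the same intensity. The failure to close holds each probe's dye effect as well as noise, so this SE includes dye variation that the fitted ratio lacks. The SE covers the arrays and not the spread between cultures. A ratio along a single path through the loop keeps the dye effect, so a gap between paths can hold dye as well as noise. To be counted, a gene needed a log2 ratio of 1 or more in size. It also had to reach 0.5 with that sign on the array shared by the pair of conditions and again along the other 2 arrays. A gene was measured if 1 of the conditions, in both of its readings, stood well above background. All 10 members were measured in all 3 comparisons, each by a brightest probe that was well above background in all 6 channels. The log2 channel values of the genes above background in all 6 channels (10778 genes) correlated between both readings of a condition at 0.995 to 0.997. Of 10 macrophage markers all were measured, whereas of 13 markers of other cell types only Hba-a1 and S100a8 were. In such bulk RNA, a change in the mix of cells and a change in RNA per cell cannot be told apart.

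Promoter sequence from RefSeq (build GRCm38.p6) was described for 9 members, in 14 windows of 300 bases, from 250 before to 50 after a transcript start. Pmaip1 is named only. Both strands were searched for TTGCATCA (the composite element bound by ATF4 and CHOP), TGTTTAC (forkhead factors), CACGTG (an E-box) and the p53 response element of 20 bases with at most 3 mismatches and intact cores. Of the 14 windows, 6 held a match, and no match overlapped another. The stretches of Bbc3 and Bcl2a1b are shown, 5′ to 3′ on the plus strand, because these members had the largest differences between media, and capitals mark the match.
Bbc3, chr7:16309333-16309582, the 250 bases before its first start, with the p53 element 97 bases before that start: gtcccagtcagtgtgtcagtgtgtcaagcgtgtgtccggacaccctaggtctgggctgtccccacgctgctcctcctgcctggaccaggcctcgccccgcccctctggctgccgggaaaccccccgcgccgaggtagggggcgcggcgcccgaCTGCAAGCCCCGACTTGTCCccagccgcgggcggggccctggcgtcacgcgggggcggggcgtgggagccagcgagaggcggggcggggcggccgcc
Bbc3, chr7:16310083-16310112, a forkhead element 167 bases before a later start: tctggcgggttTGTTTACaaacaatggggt
Bcl2a1b, chr9:89199023-89199272, the 250 bases before its start, with the composite element in its reverse orientation 40 bases before the start: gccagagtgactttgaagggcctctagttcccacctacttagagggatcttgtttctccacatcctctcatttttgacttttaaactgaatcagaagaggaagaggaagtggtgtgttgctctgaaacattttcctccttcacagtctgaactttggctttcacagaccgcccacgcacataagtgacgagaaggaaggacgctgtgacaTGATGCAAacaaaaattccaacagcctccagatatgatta
The window of Bbc3 was 76% G and C with 34 CpG pairs, and that of Bcl2a1b 46.7% with 4. The composite element was found in 0.895% of all 32851 windows of this kind, the p53 element in 0.572%, the forkhead element in 3.65% and the E-box in 7.15%. Bbc3 also held an E-box 64 bases before a further start, Bax held E-boxes 9 bases before and 35 bases after its start, and Bcl2l11 held a forkhead element 227 bases before one start. A match is a description of the letters and shows no binding.

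In EBSS, 4 of the 10 members were higher than in RPMI and none was lower, and the 4 came from both sides of the family. Bbc3 and Pmaip1, both BH3-only death genes, rose 8.39-fold and 2.60-fold. The protective genes Bcl2a1b and Mcl1 rose 4.62-fold and 2.30-fold. Among all 11874 genes measured, 4.49% were counted as higher and 2.83% as lower. The members were proposed with results of these arrays known, so their share is a description. The median log2 ratio of the 10 members was 0.13, against 0.0025 over all measured genes.

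Bbc3 encodes PUMA, a BH3-only protein that binds all the protective members. Its probe lies on chromosome 7 from 15476576 to 15476635 (build mm8, as the files give it; the exon was not analysed here). The normalized log2 intensity of Bbc3 was 12.04 (Cy5) and 11.79 (Cy3) in RPMI, 14.95 and 15.11 in EBSS, and 13.64 and 13.72 in EBSS with SB202190. The 3 media did not overlap, with EBSS highest and RPMI lowest. The log2 ratio of EBSS to RPMI was 3.07 (technical SE 0.14), and the value was 3.07 along each of the separate paths through the loop. Bbc3 ranked 6th from the top of the 11874 genes measured.

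Pmaip1 encodes NOXA, a BH3-only protein that binds mainly MCL1 and A1. Its log2 intensity was 11.12 and 11.08 in RPMI, 12.51 and 12.51 in EBSS, and 11.89 and 11.95 with SB202190 (Cy5 first, as below). EBSS was again highest and RPMI lowest, without overlap. Its log2 ratio of EBSS to RPMI was 1.38 (technical SE 0.12), 253rd from the top.

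Bcl2a1b encodes an A1 protein, a protective member whose gene NF-kappaB is known to induce in immune cells. Its probe is listed on chromosome 9 from 88997625 to 89005486 (mm8), a span of 7862 bases for one probe. The log2 intensity of Bcl2a1b was 11.23 and 11.18 in RPMI, 13.45 and 13.42 in EBSS, and 11.08 and 11.12 with SB202190. Both EBSS readings lay above all 4 others, and the readings with the inhibitor lay just below those in RPMI. Its log2 ratio of EBSS to RPMI was 2.21 (technical SE 0.12), 49th from the top. The A1 genes of the mouse are near-identical copies, so the value of Bcl2a1b is uncertain as that of a single gene, and hybridisation of the other copies was not tested.

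Mcl1, whose protein is turned over quickly, was read by a pair of probes whose starts lie 1312 bases apart on chromosome 3. At the brighter one, from 95748337 to 95748396 (mm8), log2 intensity was 13.55 and 13.74 in RPMI, 14.69 and 14.88 in EBSS, and 14.07 and 14.05 with SB202190. At the other, from 95747025 to 95747084, it was 13.39 and 13.41 in RPMI, 13.78 and 14.13 in EBSS, and 12.69 and 12.44 with SB202190. Both probes were highest in EBSS, but the readings with the inhibitor lay above RPMI at the first and below it at the second. The log2 ratio of EBSS to RPMI was 1.20 (technical SE 0.15) at the first and 0.70 at the second, and only the first passed the size of 1. Mcl1 is thus the least firm of the 4: its ratio was 0.96 from the other 2 arrays alone and 0.95 as the median of its probes, and it was not counted in either case.

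**Figure D1:**
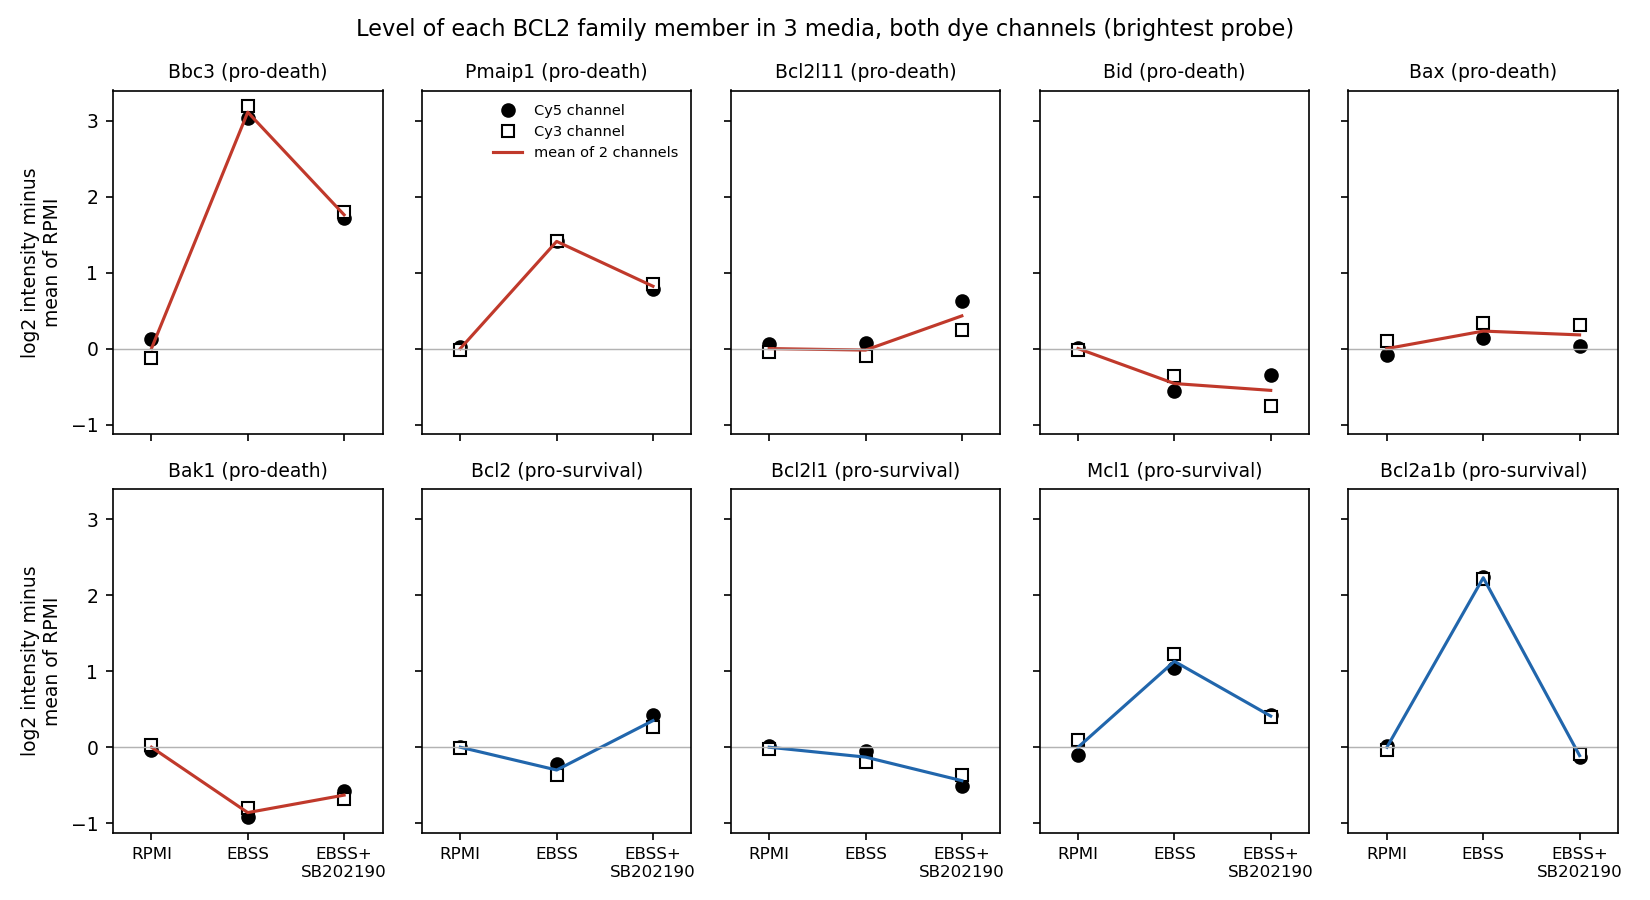
Normalized log2 intensity of the brightest probe of each of the 10 members minus the mean of its RPMI readings (y axis), in RPMI, EBSS and EBSS with SB202190, with filled circles for Cy5, open squares for Cy3 and a line through the mean of both (red for pro-death, blue for pro-survival). Both EBSS points of Bbc3, Pmaip1, Mcl1 and Bcl2a1b lie above 1, and with the inhibitor Bcl2a1b lies near its RPMI points.

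The other 6 members were not counted in EBSS. Of the remaining BH3-only genes, Bcl2l11 encodes BIM, an activator of BAX. Its brighter probe gave a log2 ratio of 0.06 (technical SE 0.11), within 1 technical SE of 0. Single paths, which keep the dye effect, gave -0.16 on the shared array and 0.49 along the other 2. At this probe Cy5 read above Cy3 in all 3 media. The other Bcl2l11 probe above background, whose start lies 15158 bases away on chromosome 2, gave 0.55. A further probe was below background in all 6 channels. Bid, whose protein links death receptors to mitochondria after cleavage by caspase 8, had a log2 intensity of 12.04 and 12.01 in RPMI, 11.47 and 11.67 in EBSS, and 11.68 and 11.27 with SB202190. RPMI was highest, and both other media overlapped. The ratio of Bid in EBSS was -0.29 (technical SE 0.12) after loess and 0.79 with median centring in its place. The latter was -0.02 relative to the median of all genes there.

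The pore formers did not move together. Bax was read by 10 spots with log2 ratios of EBSS to RPMI between 0.19 and 0.23 (SD 0.012 over spots), a narrow range within the arrays. Its intensity was 13.23 and 13.42 in RPMI, 13.46 and 13.65 in EBSS, and 13.36 and 13.63 with SB202190, a spread between dyes as large as that between media. The fitted ratio was 0.21 (technical SE 0.14), with 0.42 on the shared array and -0.23 along the other 2. Both single paths keep the dye effect, and Cy3 read above Cy5 in all 3 media. With median centring Bax gave 1.47 and was counted as higher, which made 5 members counted, and relative to the median of all genes it was 0.66. That setting counted 4251 of all 11874 measured genes as higher. Bak1 gave -0.80 (technical SE 0.12) at its brightest probe, where intensity was 12.46 and 12.53 in RPMI and 11.58 and 11.70 in EBSS. With median centring it gave 0.32, or -0.49 relative to the median of all genes there. On that relative scale it lay between -0.89 and -0.35 under the 12 settings. The second Bak1 probe, whose start lies 1265 bases away on chromosome 17, gave 0.10, a difference of -0.89 between the probes (technical SE 0.17). That second probe was dim, with a log2 intensity of 9.23 to 9.40 over the 3 media.

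Among protective genes, Bcl2, the founding member, gave a log2 ratio of -0.27 (technical SE 0.10) at the brightest probe. With median centring the brightest probe gave 0.60, or -0.21 relative to the median of all genes there. That probe carries the accession of transcript variant 1, and the probe of variant 2 gave 0.23. Bcl2l1, which encodes BCL-XL, had an intensity of 9.48 and 9.44 in RPMI, 9.41 and 9.26 in EBSS, and 8.95 and 9.09 with SB202190. Readings with the inhibitor were lowest. The ratio of Bcl2l1 in EBSS was -0.20 (technical SE 0.10) after loess and 0.30 with median centring. The latter was -0.52 relative to the median of all genes there.

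These values are relative to a typical gene of the same intensity, which loess sets near 0. With median centring the median log2 ratio of all measured genes was itself 0.81 in EBSS against RPMI, -0.45 for the inhibitor against EBSS and 0.34 for the inhibitor against RPMI. Of all genes counted in EBSS against RPMI, 61.3% were higher after loess, 46.7% with the scanner software's processed signals and 99.5% with median centring. Relative to that median the 4 counted members kept values of 3.53 (Bbc3), 2.51 (Bcl2a1b), 1.71 (Mcl1) and 1.68 (Pmaip1).

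**Figure D2:**
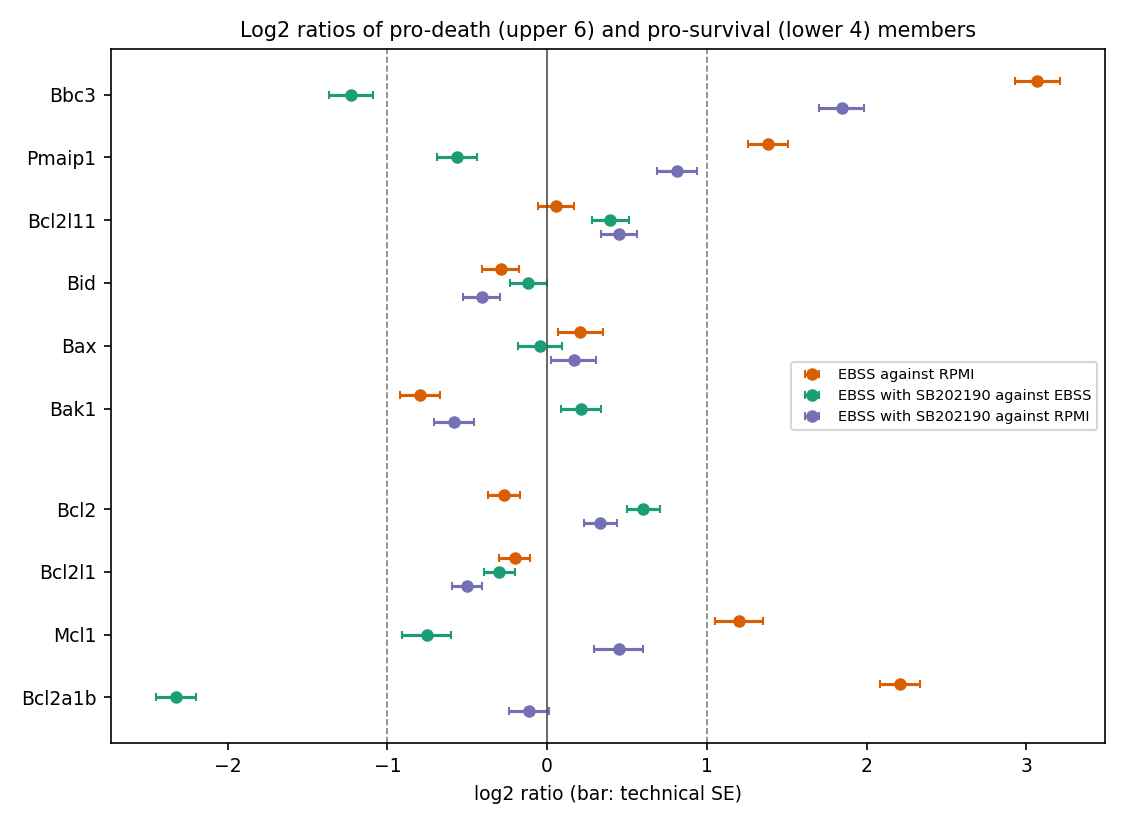
Log2 ratio (x axis, bars: technical SE) of the 10 members in the 3 comparisons, pro-death genes above and pro-survival genes below, with dashed lines at -1 and 1. Bbc3 lies at 3.07, -1.23 and 1.84, whereas Bcl2a1b lies at 2.21, -2.32 and -0.12.

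With SB202190 added to EBSS, 2 members were lower than in EBSS alone and none was higher: Bcl2a1b, 5.0-fold lower, and Bbc3, 2.34-fold lower. Over all 11691 genes measured, 2.93% were counted as lower and 0.890% as higher. This comparison uses the EBSS readings that also enter the comparison with RPMI, so the members' values are set side by side. The median log2 ratio of the 10 members was -0.21, against 0.00044 over all genes. Of all genes counted, 23.3% were higher after loess, 50.3% with processed signals and 2.29% with median centring.

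Bcl2a1b had a log2 ratio of -2.32 (technical SE 0.12), 17th from the bottom, with -2.34 on the shared array and -2.29 along the other 2. Bbc3 had -1.23 (technical SE 0.14), 177th from the bottom, with -1.23 and -1.22. These 2 genes, one protective and one pro-death, were therefore lower along both paths. Mcl1 gave -0.75 (technical SE 0.15) at its brightest probe and was not counted, while its other probe gave -1.38, a 2.60-fold lower value that passed the size and both paths. With median centring the brightest Mcl1 probe gave -1.60, with equal spread between arrays -1.02, and the median of its probes -1.07, and it was counted as lower in each.

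Pmaip1 had a log2 ratio of -0.57 (technical SE 0.12) to EBSS, with -0.56 and -0.59 along the paths, and was not counted. Bcl2 had the highest ratio of the 10 brightest probes, 0.60 (technical SE 0.10) at the variant 1 probe, where intensity was 10.17 and 10.02 in EBSS and 10.81 and 10.66 with the inhibitor. The readings did not overlap, and the ratio was 1.01 with processed signals, which counted as higher. At the variant 2 probe the order was the opposite, 10.50 and 10.59 in EBSS and 10.04 and 10.02 with the inhibitor, for a ratio of -0.51. The difference between the Bcl2 probes was 1.11 (technical SE 0.14). Their starts lie 174177 bases apart on chromosome 1, from 108365763 for variant 1 and from 108539940 for variant 2 (mm8).

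Probe choice mattered beyond Bcl2. For 4 members more than 1 probe was above background in all channels, and in 3 of these 4 pairs (Bcl2l11, Bak1 and Bcl2) the probes had opposite signs for the inhibitor against EBSS. The Bcl2l11 probes gave 0.39 and -0.35, and the Bak1 probes 0.21 and -0.06. The value of the second Bak1 probe lies within 1 technical SE (0.11) of 0. The second probes of Bcl2l11 and Bak1 were dim, at log2 intensities of 8.97 to 9.66 and 9.23 to 9.40. With median centring the brightest probes of both genes gave -0.04 and -0.44, which were 0.41 and 0.01 relative to the median of all genes there. Bid gave -0.12, Bax -0.04 and Bcl2l1 -0.30 to EBSS. Along single paths, which keep the dye effect, Bid gave 0.03 from the other 2 arrays and Bax 0.17 on the shared array. Bcl2l1 gave -1.45 with processed signals and was not counted there.

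**Figure D3:**
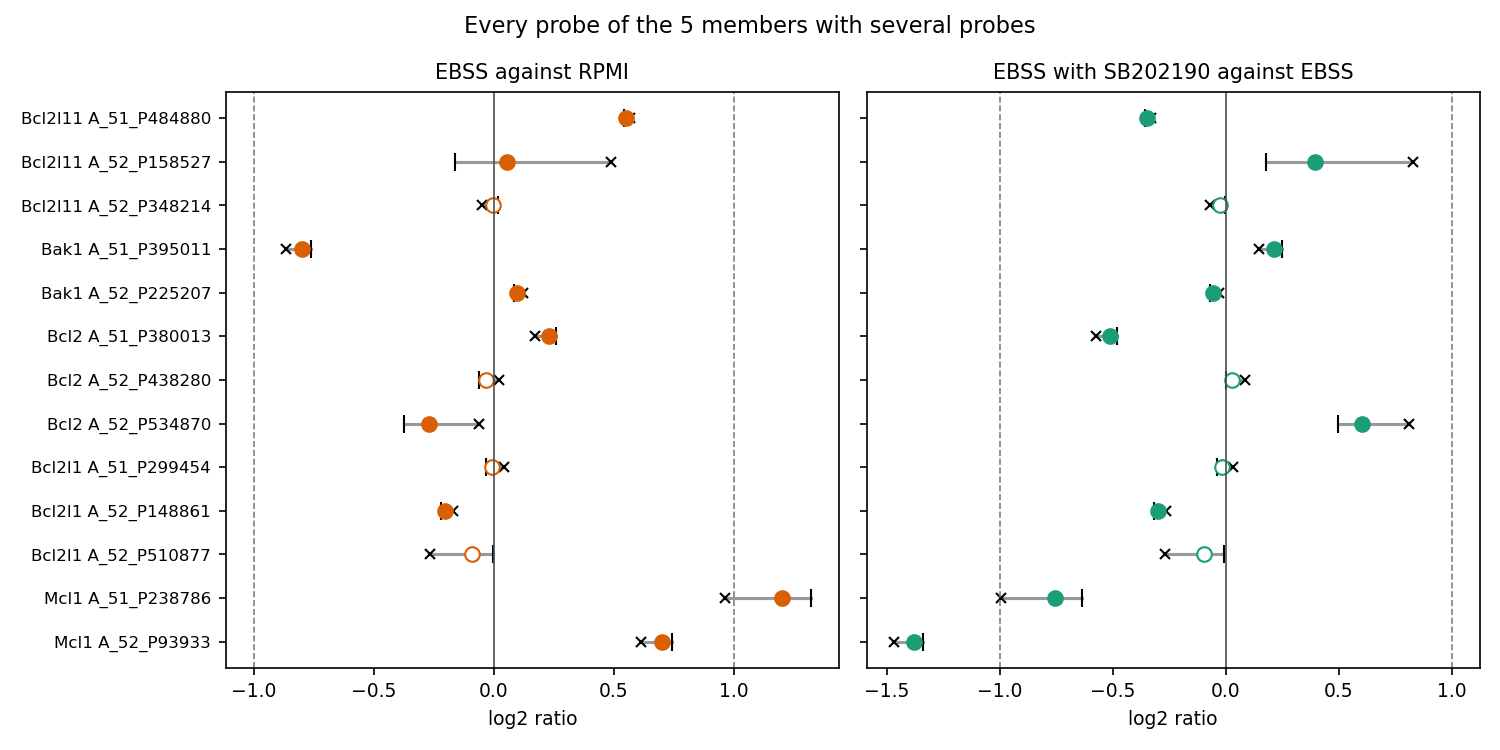
Log2 ratio (x axis) at each probe of the 5 members with several probes, in EBSS against RPMI (left) and EBSS with SB202190 against EBSS (right). Circles are the fitted ratio (open where the probe was not above background in all 6 channels), upright ticks the shared array, crosses the other 2 arrays, and dashed lines mark -1 and 1. On the right the Bcl2 probes lie at 0.60 and -0.51 and the Mcl1 probes at -0.75 and -1.38.

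Against RPMI, EBSS with SB202190 left 1 member counted, Bbc3, which was 3.59-fold higher, and none lower. Of 11863 genes measured, 1.48% were counted as higher and 2.43% as lower. Of all counted, 37.8% were higher after loess and 63.0% with median centring. The log2 ratio of Bbc3 was 1.84 (technical SE 0.14), 30th from the top. This comparison shares its RPMI readings with the first and its inhibitor readings with the second.

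The other 3 members that had been higher in EBSS differed in where they stood with the inhibitor. Bcl2a1b had a log2 ratio of -0.12 (technical SE 0.12) to RPMI, which lies within 1 technical SE of 0. With median centring it was 0.24, or -0.10 relative to the median of all genes there. Pmaip1 stood at 0.81 (technical SE 0.12), 315th from the top and short of the size of 1. Mcl1 stood at 0.45 (technical SE 0.15) by its brightest probe and at -0.68 by the other, a difference of 1.13 (technical SE 0.20), so its direction depends on the probe. Of the other members, Bcl2l11 had 0.45, Bcl2 0.33, Bax 0.17, Bid -0.41, Bcl2l1 -0.50 and Bak1 -0.58. Among these, Bid gave 0.04 with median centring, or -0.29 relative to the median of all genes there. Bax had -0.05 on the shared array, a path that keeps the dye effect. Bcl2l1 gave -1.57 with processed signals and was counted as lower there.

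By role, both sides of the family held counted genes in EBSS. Of the 6 pro-death genes 2 were higher there, and of the 4 pro-survival genes 2 were. Over all measured genes 4.49% were. The median log2 ratio to RPMI was 0.13 for the pro-death and 0.50 for the pro-survival genes, a difference of -0.37, with -0.42 on the shared array and -0.28 along the other 2. For the inhibitor against EBSS the medians were -0.08 and -0.53, a difference of 0.45, and 1 gene of each role was lower. Over all measured genes 2.93% were lower. For the inhibitor against RPMI the medians were 0.31 and 0.11, a difference of 0.20. There 1 of 6 pro-death and 0 of 4 pro-survival genes were higher, against 1.48% of all measured genes. With so few genes and conditions these medians are descriptions without a test. RNA levels also leave out the control of these proteins by cleavage, phosphorylation and turnover.

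**Figure D4:**
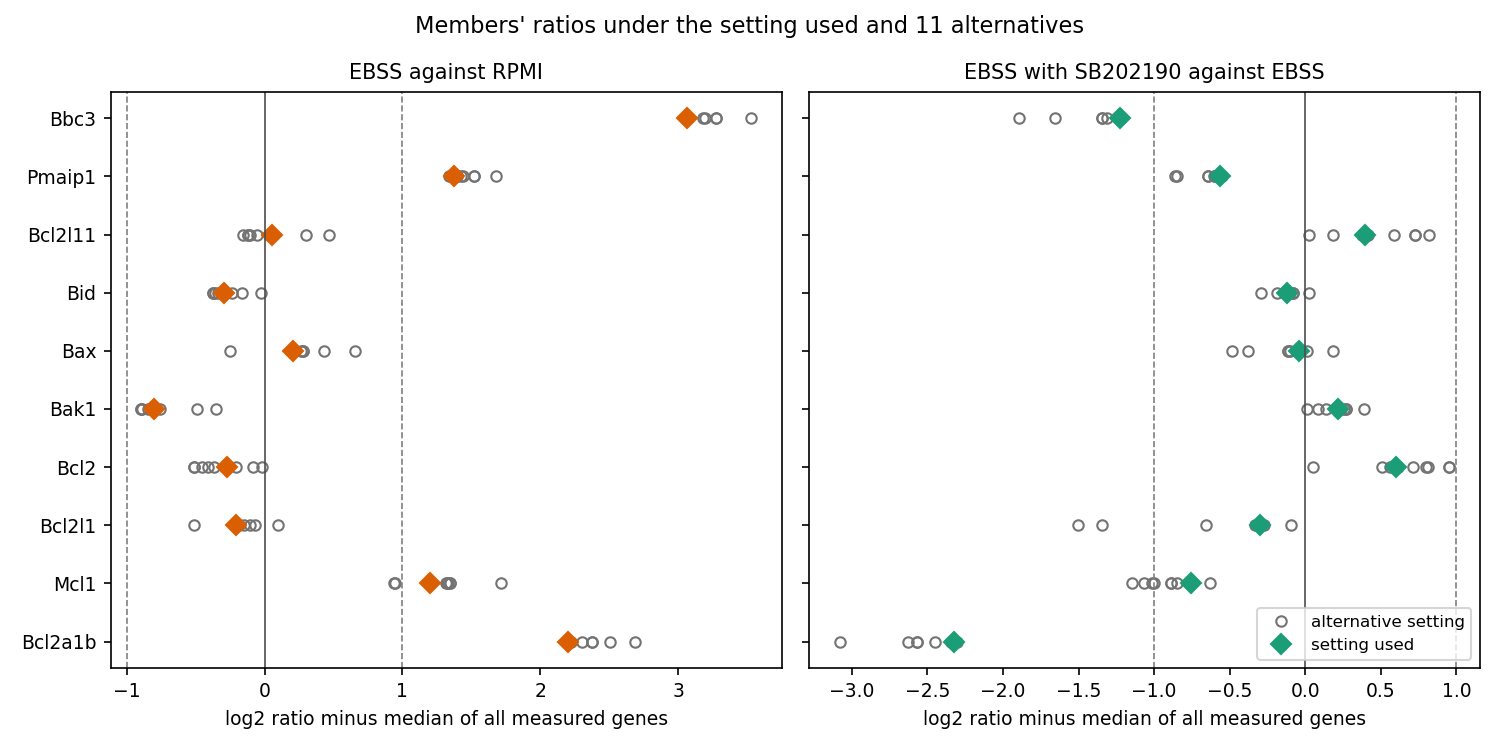
Log2 ratio of each member minus the median of all measured genes (x axis) under the processing used (diamonds) and 11 alternatives (open circles), in EBSS against RPMI (left) and EBSS with SB202190 against EBSS (right), with dashed lines at -1 and 1. On this scale Bbc3 stayed between 3.05 and 3.53 on the left and between -1.90 and -1.22 on the right, while Bax on the left lay between -0.25 and 0.66.

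Of 16 other genes of the family, 13 were on the arrays, and 8 were measured in EBSS against RPMI. Bcl2a1c, another A1 gene, was 2.4-fold higher in EBSS (log2 ratio 1.26, technical SE 0.11) and the only one of them counted after loess. With the inhibitor it was 2.33-fold lower than in EBSS (-1.22), again the only one of 7 measured, and to RPMI its ratio was 0.04. Over all measured genes 4.49% were higher in EBSS than in RPMI, and 2.93% lower with the inhibitor than in EBSS. The size of both Bcl2a1c ratios depended on the signals used, with 2.35 and -2.57 from the processed ones. Bcl2a1c was counted under all 12 settings in both comparisons. The filters on dim probes could not change it, because its probe was above background in all channels. Bcl2l2, which encodes the protective BCL-W, narrowly missed the size with the inhibitor, at -0.97 (technical SE 0.11) to EBSS. It was counted as lower under 7 of 12 settings, with -1.69 from processed signals, -1.42 with median centring and -1.07 with equal spread. In EBSS against RPMI, 4 genes of this list were counted as higher with median centring, where 4251 of 11874 measured genes were. Bcl2a1c, like Bcl2a1b, was highest in EBSS, but cross-hybridisation of the A1 copies was not tested, so the A1 probes cannot be taken as separate genes. The list's median log2 ratios were 0.15, -0.19 and 0.06 in the 3 comparisons, and for the last of these none of 8 was counted after loess, while Bcl2l2 was counted as lower under 4 of 12 settings. Bmf, above background in only 3 channels, gave -0.43 in EBSS against RPMI and -0.32 for the inhibitor against RPMI. It was counted as lower in both comparisons with processed signals and with the series table. The BH3-only genes Bik and Hrk, the effector Bok, and Bcl2l10 and Bcl2l14 were not measured.

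Downstream of the family, 15 genes of the mitochondrial death machinery and its inhibitors were all measured, among them Cycs (cytochrome c), Apaf1, the caspases and Xiap. After loess none was counted in any of the 3 comparisons, where either direction took 7.32%, 3.81% and 3.90% of all genes. Their log2 ratios ran from -0.79 to 0.41 in EBSS against RPMI (median -0.22), from -0.38 to 0.91 for the inhibitor against EBSS (median 0.09), and from -0.57 to 0.53 for the inhibitor against RPMI (median -0.05). Under some of the 11 other settings 1 or 2 of the 15 were counted. At the smaller size of 0.58, 3 were lower in EBSS against RPMI, where 1069 of 11874 measured genes were. At that size 4 were higher for the inhibitor against EBSS, where 604 of 11691 measured genes were. Birc2, an inhibitor of apoptosis, gave -0.76 in EBSS against RPMI after loess, but -2.06 with processed signals and -1.20 without background subtraction, and was counted as lower in both. For the inhibitor against EBSS, Birc2 gave 0.38 after loess and 1.46 with processed signals, which counted as higher. With equal spread between arrays, Htra2, a mitochondrial protease gene, gave 1.20 and Casp6, an executioner caspase gene, 1.00 for the inhibitor against EBSS, and both were counted as higher. With median centring Birc6 and Vdac2 were counted as higher in EBSS against RPMI, as were 4251 of 11874 measured genes.

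Of 8 transcription factors known to control members, 7 were measured in EBSS against RPMI and 2 were higher, the stress factors Ddit3 (CHOP; 9.97-fold, log2 ratio 3.32) and Atf4 (3.12-fold, 1.64). Over all measured genes 4.49% were higher. Trp53, the gene of p53, gave 0.30 and the NF-kappaB subunit gene Rela 0.68. With median centring they gave 1.21 and 1.89, and 6 of the 7 were counted as higher, as were 4251 of 11874 measured genes. After loess none of the 6 measured was counted for the inhibitor against EBSS, where Ddit3 gave -0.16 and Atf4 -0.68. Atf4 was counted as lower there with median centring (-1.52) and from the other 2 arrays alone (-1.13). Against RPMI, Ddit3 was the only one of 7 counted after loess, 8.94-fold higher (3.16), and Atf4 stood at 0.96. Over all measured genes 1.48% were higher in that comparison. Atf4 was counted as higher there with median centring (1.40) and from the other 2 arrays alone (1.41), and Jun with processed signals. The median of this list was 0.41, -0.25 and 0.48. Foxo3 was below background in 5 of 6 channels and not measured.

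Over the 3 log2 ratios, the genes nearest to Bbc3 among 9849 named genes above background in all channels were Trib3, Hbp1, Flcn, Ppp1r15a and Fnip1. Trib3, a pseudokinase gene induced by starvation stress, lay at a distance of 0.41, with ratios of 3.08, -0.94 and 2.14. Hbp1, a transcriptional repressor gene, lay at 0.56 with 2.97, -1.56 and 1.41. Flcn (folliculin) at 0.57, Ppp1r15a (GADD34) at 0.60 and Fnip1, a folliculin partner, at 0.62 followed. The distance is Euclidean on the log2 scale over the 3 media, and it describes these arrays only.

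Of the 10 macrophage markers none was counted in EBSS against RPMI after loess, with log2 ratios from -0.76 to 0.41. With median centring 4 were counted as higher, as were 4251 of 11874 measured genes. From the other 2 arrays alone, a path that keeps the dye effect, Spi1 gave -1.54 and was counted as lower. Its fitted ratio was -0.70. Cd14 and Fcgr1 were lower with the inhibitor, with -1.56 and -1.31 to EBSS and -1.94 and -1.38 to RPMI. Over all measured genes 2.93% were lower to EBSS and 2.43% to RPMI. With median centring Fcgr1 gave -0.93 to RPMI and was not counted. From the other 2 arrays alone Spi1 (-1.24) and Ptprc (-1.03) were counted as lower than in EBSS, and Ptprc also with median centring. Their fitted ratios after loess were -0.40 and -0.53, and neither was counted. To RPMI, Spi1 had a fitted ratio of -1.09 but -0.25 along the other 2 arrays, and was not counted. It was counted as lower from the shared array alone (-1.52). The markers of other cell types that were measured, Hba-a1 and S100a8, were not counted in any comparison after loess, although S100a8 was counted as lower for the inhibitor against RPMI with processed signals, and the part of either set in the members' values was not tested.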

How the data were processed

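Each of 3 arrays held a pair of conditions, in a closed loop. The submitters' processing notes and the headers name Agilent Feature Extraction 9.5.3.1 as the reader of the spots. Per the file headers, the deposited mean spot intensity and median background intensity are not normalized in either dye. Processed intensity, per the file headers, is background-subtracted and dye-normalized by that software, and the deposited log10 ratio compares its dyes. Other deposited marks per spot flag controls, outliers and signal over background. The authors' series table, when set against the scanner values, was found to hold log2 ratios (Cy5 to Cy3) of processed intensity, averaged over spots and not centred.

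From these, mean intensity was corrected with normexp (offset 50) and normalized by loess within arrays, with limma 3.58.1 under R 4.3.3 (weight 0 for controls). Channel values were further scaled between arrays (Aquantile). Control and outlier spots were left out, spots of a probe were averaged, and no spot was saturated. Of 45018 spots per array 1639 were controls, and 40.1% to 49.9% were well above background per channel. The brightest probe represented a gene. Ratios and counts were made in Python 3.11.15 (pandas 2.3.3, numpy 2.4.6), and plots in matplotlib 3.10.9. The loop fit was tested on simulated data, where the technical SE was checked only after the simulated dye effect had been taken out. With 3 arrays, precision is limited by their number: the loop sum had an SD of 0.287 over genes above background, and the median technical SE was 0.107.

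The members and lists were chosen with earlier results of these data known. Named were all members, the counted genes of each list (at most 4 by size per comparison) and the 5 genes nearest to Bbc3. Any other gene was named after its values were seen. The 12 alternatives covered background, centring, scaling, arrays used, dim probes, probes per gene, the authors' table and the size threshold. Protein sequences were not used here.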

Additional observations from a re-analysis of the deposited data

How the results depend on the processing

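Bbc3 (in all 3 comparisons), Bcl2a1b (EBSS against RPMI, inhibitor against EBSS) and Pmaip1 (EBSS against RPMI) were counted under all 12 settings that give ratios, and Mcl1 in EBSS against RPMI under 10 of them. The 12 include the setting used. The filters on dim probes could not change a member, because each brightest probe was above background in all channels. The median of all probes could not change a gene with a single probe. The series table nearly repeated the processed signals. These tallies therefore overstate the number of separate checks. The count of members stayed within 1.5 times in 32 recomputed counts and not in 4. The exceptions were the inhibitor against RPMI, with 2 with processed signals and 2 with the authors' series table, and the smaller size of 0.58, with 4 for the inhibitor against EBSS and 3 against RPMI. The pro-death minus pro-survival median, a description, kept its sign under all 11 alternatives and moved by more than the technical error in 11 values but not in 22. The values under the dim-probe filters could not move and are among the 22. In EBSS against RPMI it was -0.56 with processed signals, -0.53 with equal spread between arrays, -0.21 with the median of all probes and -0.64 with the series table. For the inhibitor against EBSS it was 1.10 with processed signals, 0.28 with median centring, 0.62 with equal spread, 0.65 without background subtraction, 0.60 with the median of all probes and 1.02 with the series table. For the inhibitor against RPMI it was 0.36 with the median of all probes. The causes were not tested. Over all genes, 869 were counted in EBSS against RPMI, 446 for the inhibitor against EBSS and 463 for the inhibitor against RPMI. These counts were 2059, 1558 and 1251 with processed signals and with the series table, 4274, 786 and 243 with median centring, and 1014, 880 and 242 with equal spread. They were 1156, 736 and 615 without background subtraction, 976, 606 and 477 from the other 2 arrays alone, and 2355, 1651 and 1511 at the size of 0.58.

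Each condition was 1 sample, so the spread between cultures is unknown. No paired analysis was possible because each condition has 1 sample and no replicate numbers. For the same reason no replicate was left out, and single paths through the loop were used instead. These paths keep the dye effect of a probe, which cancels only in the fit. Signal over background limits the dim probes of Bcl2l11, Bcl2 and Bcl2l1, whose ratios near 0 show no equality between media.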

Other observations

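Some genes around the family fell short of the size of 1 after loess but had values with one sign along both paths. They were named after their values were seen. Htra2 had a log2 ratio of -0.76 in EBSS against RPMI (0.59 with median centring) and 0.91 for the inhibitor against EBSS. Casp6 had -0.79 in EBSS against RPMI (0.30 with median centring). Relative to the median of all genes, under the 12 settings, Htra2 stayed between -0.95 and -0.22 in EBSS against RPMI. Casp6 stayed between -0.95 and -0.51 on that scale. Bnip3l, a mitophagy receptor gene, had 0.90 in EBSS against RPMI, and was counted as higher with median centring (2.02) and from the other 2 arrays alone (1.15).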
